A study of Homo sapiens with 24 samples.

Results

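The genes described here are 10 genes of the NF-κB pathway, a signalling route of inflammation and cell survival, in A549 cells, an established human lung adenocarcinoma line. They were taken by symbol from the 58721 genes with a row in every count file, and all 10 had a row: the inhibitor NFKBIA, the subunits NFKB1, NFKB2, RELA, RELB and REL, and the pathway genes TNFAIP3, BIRC3, ICAM1 and IRAK2. The study sequenced poly(A) RNA of 24 A549 libraries to ask which genes depend on MYBL2 and FOXM1, cell-cycle transcription factors. Its single knockdowns gave 4 siMYBL2 and 4 siFOXM1 libraries, transfected with 25 nM siRNA, with 4 libraries of scrambled siRNA (siControl) as the control of both. The double knockdown gave 3 siBoth libraries, with siRNAs against both genes, and 3 of its own scrambled control (siControl_Both). The third experiment gave 3 libraries treated with 20 µM FDI-6 for 24 h (FDI6), a forkhead domain inhibitor directed at FOXM1, and 3 of its control (control_FDI6). The control_FDI6 labels name no vehicle, and the study describes its FDI-6 comparison as one with DMSO. The labels give the growth medium only as DMEM or RPMI, and the dose of each siRNA in siBoth is not stated apart.

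NF-κB is a family of dimers built from RELA, RELB, REL and the processed products of NFKB1 and NFKB2. In resting cells IκBα, the product of NFKBIA, holds the canonical dimers in the cytoplasm, and signals from TNF, interleukin 1 or Toll-like receptors lead to its destruction and let the dimers bind κB sites in DNA. Among the genes that active NF-κB is known to switch on are its own brakes, NFKBIA and TNFAIP3 (the ubiquitin-editing enzyme A20), its subunit genes NFKB1, NFKB2, RELB and REL, the ubiquitin ligase BIRC3 (cIAP2) and the adhesion molecule ICAM1, while IRAK2 is a kinase of the interleukin 1 and Toll-like receptor complex.

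In hg38 with GENCODE V44, the subunit genes lie at chr4:102501330-102617302 (NFKB1), chr10:102394110-102402524 (NFKB2), chr11:65653599-65663090 (RELA), chr19:45001461-45038192 (RELB) and chr2:60881491-60931612 (REL). The others lie at chr14:35401079-35404749 (NFKBIA), chr6:137867214-137883314 (TNFAIP3), chr11:102317484-102339403 (BIRC3), chr19:10271093-10286615 (ICAM1) and chr3:10164919-10243745 (IRAK2). NFKBIA and RELA are on the minus strand. All values are for whole genes, the sum over their exons.

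The windows of 250 bases before the start of transcription are shown here for 5 of the genes, since κB sites in promoters are how the family is known to reach its own genes. They were read from RefSeq promoters of GRCh38.p14 on the gene's strand, 5′ to 3′. Distances are from the starts used there, and the TNFAIP3, REL and ICAM1 windows run past the GENCODE V44 gene starts given above. NFKBIA lies on the minus strand at chr14:35404750-35404999. The others are on the plus strand, with TNFAIP3 at chr6:137867009-137867258, BIRC3 at chr11:102317234-102317483, REL at chr2:60881324-60881573 and ICAM1 at chr19:10270870-10271119. Capitals mark matches to the κB consensus of 10 letters, searched on both strands.
NFKBIA: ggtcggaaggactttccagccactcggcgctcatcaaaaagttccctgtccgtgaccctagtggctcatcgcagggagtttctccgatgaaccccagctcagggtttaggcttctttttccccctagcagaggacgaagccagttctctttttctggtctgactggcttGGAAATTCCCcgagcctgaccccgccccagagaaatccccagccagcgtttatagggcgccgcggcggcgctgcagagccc
TNFAIP3: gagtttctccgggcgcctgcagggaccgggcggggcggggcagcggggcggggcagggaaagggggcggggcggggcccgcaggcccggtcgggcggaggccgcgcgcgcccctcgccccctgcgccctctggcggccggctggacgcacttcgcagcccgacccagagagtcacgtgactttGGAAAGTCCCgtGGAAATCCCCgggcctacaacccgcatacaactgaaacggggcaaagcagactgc
BIRC3: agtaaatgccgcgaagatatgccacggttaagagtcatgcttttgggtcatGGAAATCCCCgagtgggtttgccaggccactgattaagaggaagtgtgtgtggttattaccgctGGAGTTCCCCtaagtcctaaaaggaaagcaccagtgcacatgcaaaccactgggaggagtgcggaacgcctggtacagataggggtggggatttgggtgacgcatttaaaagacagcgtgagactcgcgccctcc
REL: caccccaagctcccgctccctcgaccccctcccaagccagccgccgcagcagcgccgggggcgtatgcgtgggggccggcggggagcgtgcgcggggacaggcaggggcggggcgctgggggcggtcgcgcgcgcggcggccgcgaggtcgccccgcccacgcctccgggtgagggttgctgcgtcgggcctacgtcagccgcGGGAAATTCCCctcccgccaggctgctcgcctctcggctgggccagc
ICAM1: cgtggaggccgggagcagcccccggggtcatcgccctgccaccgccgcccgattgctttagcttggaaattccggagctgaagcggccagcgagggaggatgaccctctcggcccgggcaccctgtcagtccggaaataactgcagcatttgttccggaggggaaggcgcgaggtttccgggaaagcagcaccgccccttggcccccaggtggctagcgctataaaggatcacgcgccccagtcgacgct

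In these windows the match began 81 bases before the start in NFKBIA, 67 and 55 bases before it in TNFAIP3, and 199 and 135 bases before it in BIRC3. The REL window held matches at 47 and 46 bases that overlap each other, and the ICAM1 window held no match. Over the 9 genes with a window in the table, 6 had a match in at least 1 window (these 4, NFKB1 and NFKB2), while those of RELA, ICAM1 and IRAK2 had none. RELB was not in the table. Of all 35116 promoter windows of the same length, 9.96% held a match. This is a share of windows and not of genes, and NFKB2 had 3 windows and NFKB1 and RELA 2 each. A match is a run of letters and not a measured binding site, and no match says only that these letters are not in this window.

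Depth was 16487394 to 30140550 read pairs on genes per library, and lowest in FDI6 and control_FDI6. Levels are CPM, the counts of a gene per 1000000 counts of its library, with library sizes scaled by edgeR's TMM method over the 24 libraries. A gene was called higher or lower when edgeR's quasi-likelihood test gave an adjusted p (Benjamini-Hochberg) under 0.05 and the fold change was over 1.5. The knockdowns were seen in the targeted genes, with MYBL2 at 6.38 ± 1.88 CPM (SD, n = 4) in siMYBL2 against 154 ± 18.9 in siControl, and FOXM1 at 12.1 ± 1.30 in siFOXM1 against 126 ± 13.0. FOXM1 was also lower in siMYBL2, at 75.9 ± 14.0 CPM. In siBoth they were at 8.54 ± 2.02 and 13.2 ± 2.65 CPM (SD, n = 3). With FDI-6, the log2 fold changes were -0.51 for MYBL2 and -0.37 for FOXM1, both under 1.5-fold. Of 5 epithelial markers, KRT8 and KRT18 were at 1020 CPM or more in every library, KRT19 at 37.7 to 349, CDH1 at 9.51 to 90.3 and EPCAM at 1.67 to 37.5 CPM. Of 5 lung markers, SFTPC, SFTPB, SFTPA1 and NKX2-1 were at or near 0 (at most 0.321 CPM), while NAPSA was at 0.546 to 3.07 CPM. The leukocyte gene CD3E was at 0 in all 24 libraries and PTPRC was at most 0.232 CPM.

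Replicate 4 of the single knockdowns stood apart over all genes, with a chi-square per gene of 28.29 to 62.81 against its group's other libraries and of 11.23 to 21.6 among those. It was the lowest library of its group for 10 of 10 genes in siMYBL2 and in siControl, and for 9 of 10 in siFOXM1. Over the 16065 genes tested in siMYBL2 it was the lowest for 32.6% in siMYBL2, 33.3% in siControl and 31.4% in siFOXM1. Same-numbered libraries of the single and double knockdowns deviated together, whereas those of the FDI-6 experiment did not, and a further fit that takes out the differences between replicate numbers (a replicate block) is given for the knockdowns where it changes a call. The methods speak of biological replicates without saying which cultures these were, and p-values measure the spread between these libraries, which may be technical.

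The levels of 9 of the 10 genes were lowest in control_FDI6, and most were highest in the double-knockdown experiment, whatever the treatment. For TNFAIP3, the mean was 4.24 ± 0.895 CPM in control_FDI6, 17.9 ± 8.22 in siControl and 140 ± 22.4 in siControl_Both. ICAM1 had the widest spread, from 0.453 ± 0.0782 CPM in control_FDI6 and 3.58 ± 1.56 in siControl to 38.1 ± 8.25 in siControl_Both. These 3 groups are all controls and their ranges did not overlap for either gene. The share of read pairs that were not aligned was 7.68 to 10.93% in the double-knockdown experiment and 1.73 to 3.03% in the other libraries. The experiments differ in more than the treatment, so that levels cannot be set against each other across them and each treatment was compared with its own control. RELA was the exception to the order, with its lowest mean in siMYBL2 (79.2 ± 5.07 CPM) and its highest in siControl_Both (138 ± 2.53).

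**Figure D1:**
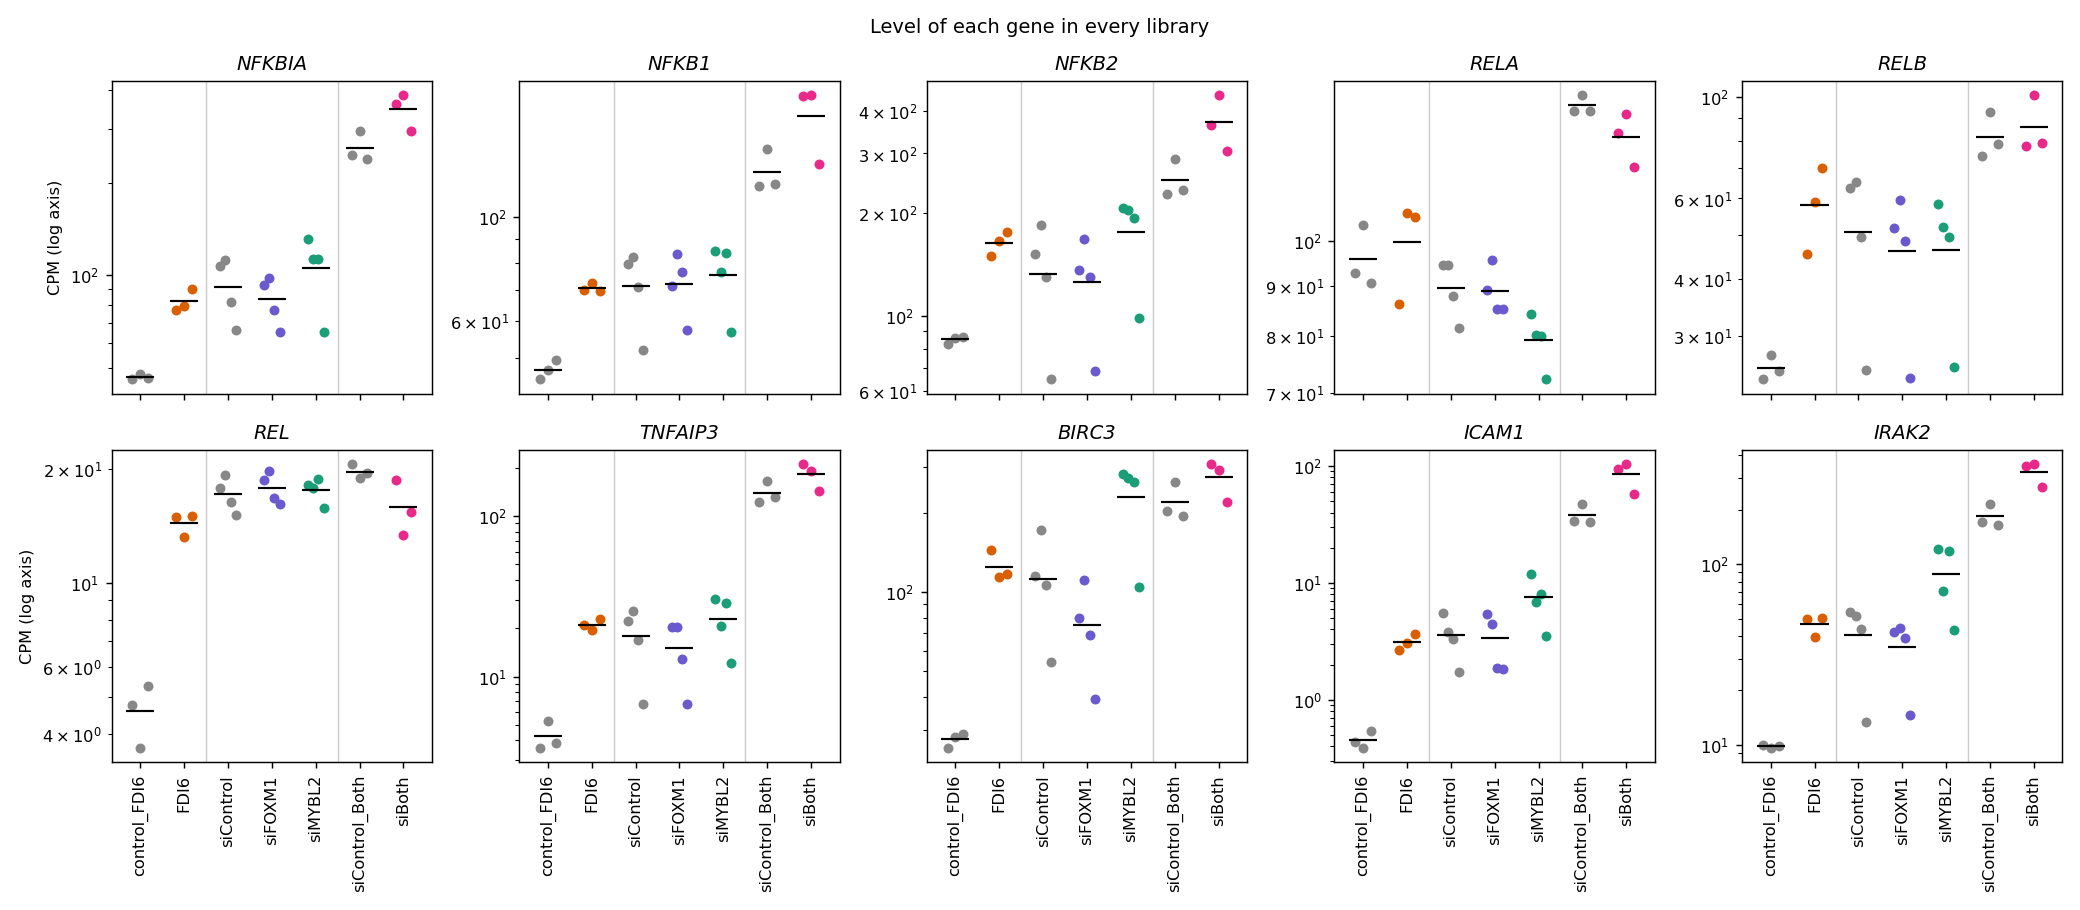
The plot shows the level of each of the 10 genes (CPM, log axis, own scale per panel) in every library, with points for libraries, bars for group means and grey lines between the 3 experiments. The siControl_Both and siBoth libraries stand above all other libraries for NFKBIA, NFKB1, NFKB2, RELA, RELB, TNFAIP3, ICAM1 and IRAK2, and replicate 4 is the low point of the single-knockdown groups for most genes.

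Set on a scale per length (CPM per kilobase of the canonical transcript), the siControl means ran from 58.9 ± 13.9 for NFKBIA, 44.1 ± 16.8 for NFKB2 and 35.6 ± 2.48 for RELA down to 3.83 ± 1.76 for TNFAIP3, 1.55 ± 0.163 for REL and 1.21 ± 0.524 for ICAM1 (SD, n = 4). RELB, NFKB1, BIRC3 and IRAK2 lay between them, at 22.5 ± 8.14, 17.5 ± 3.36, 16.3 ± 7.08 and 11.8 ± 5.45. The subunits were thus unequal, with RELA about the level of NFKB2 within their spread and REL far below both. In siControl_Both ICAM1 was at 12.8 ± 2.78 CPM per kilobase and REL at 1.77 ± 0.0762.

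With FDI-6, 8 of the 10 genes rose and none fell, against 8.0% of all 15240 genes tested called higher and 5.77% called lower. The median log2 fold change of the 10 was 1.42, against -0.01 for all genes tested. All 10 passed the filter on low counts, but ICAM1 had only 8, 8 and 10 counts in the control_FDI6 libraries and passed through the FDI6 libraries, so that a call of it was likely from the outset and its change is best read from its counts. Without it, 7 of 9 rose.

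Among the subunits, REL, the subunit best known from lymphoid cells, was at 14.9, 13.2 and 15.0 CPM in the FDI6 libraries and at 4.77, 3.66 and 5.33 CPM in control_FDI6. Each treated library lay well above each control, a 3.13-fold rise (log2 fold change 1.65 ± 0.15 SE, edgeR adjusted p = 1.12e-05). About 33.3% of REL's exon bases overlap another gene on the same strand in GENCODE V44, and pairs there fit both genes. RELB, the partner of the NFKB2 product in the non-canonical pathway, was at 45.3, 59.0 and 69.8 CPM with FDI-6 and at 24.1, 27.2 and 25.1 without, and NFKB2 was at 150.0, 166 and 176 CPM against 82.8, 86.2 and 86.5. Neither gene's ranges overlapped, and both rose (RELB 2.27-fold, edgeR adjusted p = 5.9e-05; NFKB2 1.93-fold, edgeR adjusted p = 4.24e-06). NFKB1, the precursor of p50, was at 69.8, 72.3 and 69.4 CPM against 44.9, 47.1 and 49.3. Its groups did not overlap either, with an edgeR adjusted p of 0.000113, but its fold change of 1.495 was just under the limit and it was not called. RELA, the main transactivating subunit, was the odd one out among the subunits. It was at 86.3, 107 and 106 CPM with FDI-6 and at 92.9, 104 and 90.7 without, with overlapping ranges and a log2 fold change of 0.05 ± 0.09 (SE).

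Both brakes rose. NFKBIA was at 77.1, 79.7 and 89.9 CPM with FDI-6 and at 45.8, 47.6 and 46.2 in the controls, a 1.77-fold change (log2 0.82 ± 0.08 SE, edgeR adjusted p = 1.83e-05). TNFAIP3 went further, from 3.58, 5.25 and 3.88 CPM in the controls to 20.8, 19.4 and 22.9 with FDI-6, or 4.93-fold (log2 2.30 ± 0.15 SE, edgeR adjusted p = 9.61e-07). The treated libraries of each gene lay above all of its controls.

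BIRC3, IRAK2 and ICAM1 rose by a log2 fold change of over 2 each, as TNFAIP3 did. BIRC3, the antiapoptotic ubiquitin ligase of the TNF receptor complex, was at 145, 114 and 117 CPM with FDI-6 and at 25.5, 28.2 and 28.9 without (4.55-fold, log2 2.19 ± 0.10 SE, edgeR adjusted p = 9.06e-08). IRAK2 was at 49.9, 39.6 and 50.5 CPM against 10.0, 9.59 and 9.91 (4.73-fold, log2 2.24 ± 0.11 SE, edgeR adjusted p = 1.24e-07). The controls of IRAK2 were nearly the same in the 3 libraries and far below each FDI6 library. ICAM1, which binds leukocyte integrins, was at 2.67, 3.09 and 3.67 CPM (44, 53 and 66 counts) with FDI-6 against 0.433, 0.386 and 0.539 CPM, which gives a fitted 6.88-fold difference (log2 2.78 ± 0.30 SE, edgeR adjusted p = 4.09e-05). This was the largest fold of the 10 on the smallest counts, and 25.4% of ICAM1's exon bases overlap genes of the opposite strand. For 9 of the 10 genes every FDI6 library lay above every control library, as for 26.7% of all genes tested. Summed leukocyte markers were at 2.18 to 3.39 CPM with FDI-6 and at 2.91 to 4.53 CPM without, and summed fibroblast markers at 5.58 to 9.34 CPM against 17.9 to 20.6. Summed epithelial markers were at 4280 to 5080 CPM against 7570 to 8250, with KRT8, KRT18, CDH1 and EPCAM lower in mean and KRT19 higher. The part of the fibroblast and epithelial markers in these values was not tested. In bulk RNA, a change in the share of cells that express a gene and a change in its RNA per cell cannot be told apart.

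**Figure D2:**
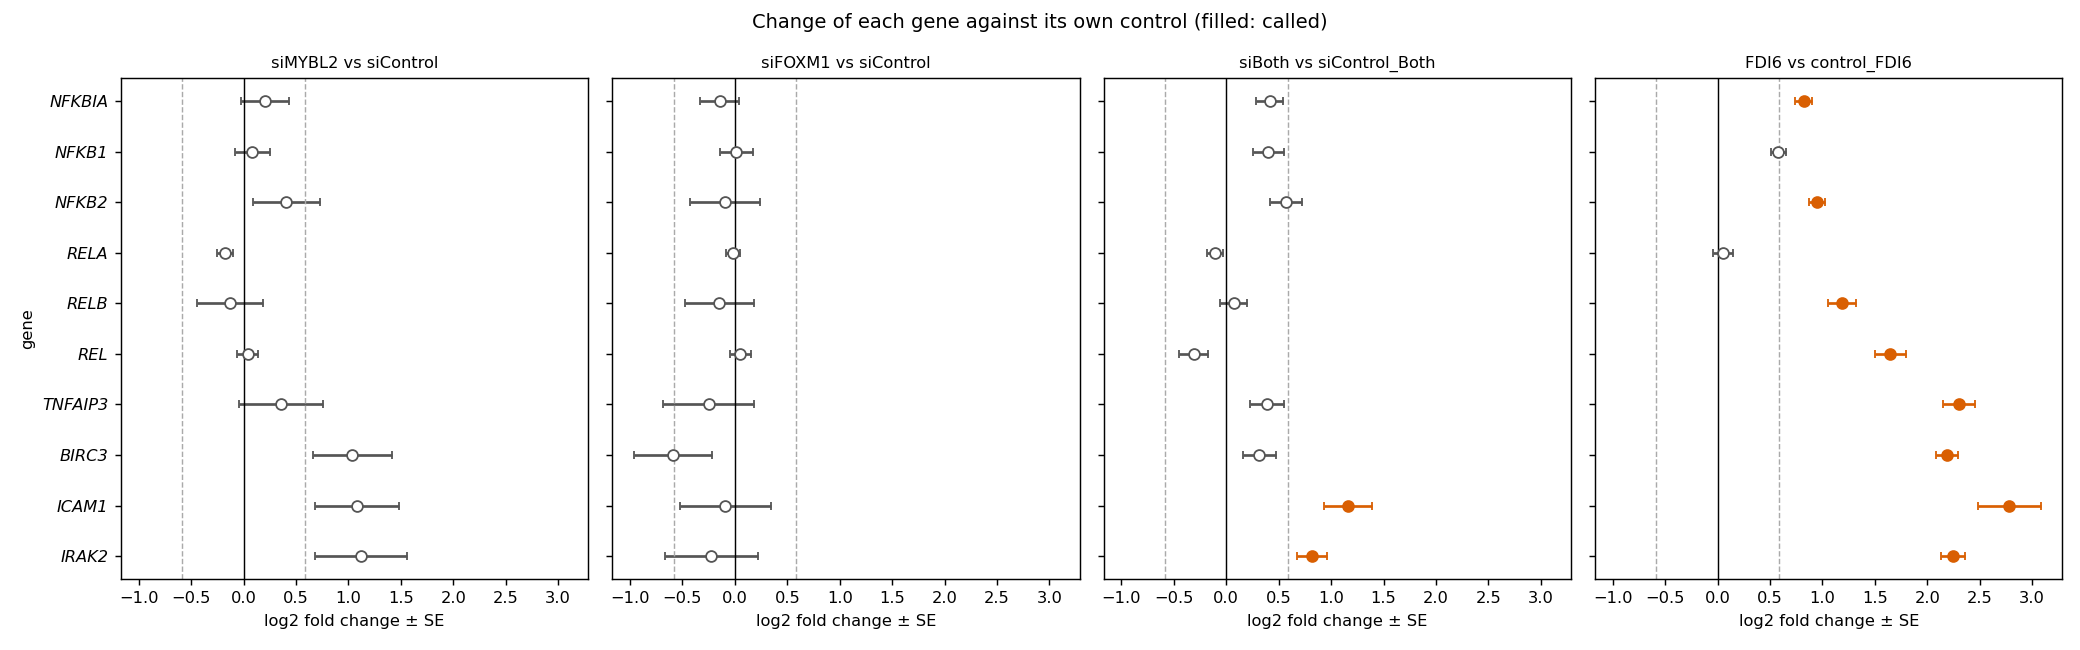
The plot gives the log2 fold change of each gene (x axis, points with bars of 1 SE) against its own control in 4 panels, with dashed lines at 1.5-fold and filled points for called genes. With FDI6 8 points are filled, with siBoth 2 (ICAM1 and IRAK2), and with siMYBL2 and siFOXM1 none, where the bars are wider.

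In siMYBL2, BIRC3, ICAM1 and IRAK2 were higher than in siControl in 4 of 4 same-numbered pairs, and edgeR's test on the siMYBL2 and siControl libraries without the block called none of the 10 genes. NFKB2 was also higher in 4 of 4 pairs, by less (log2 ratio 0.44 ± 0.21, SD over 4 pairs). The median log2 fold change of the 10 was 0.28, against 0.015 for all genes tested. BIRC3 was at 281, 273, 264 and 105 CPM in siMYBL2 replicates 1 to 4 and at 115, 173, 107 and 54.1 CPM in siControl. Replicate 4 was low in both groups, and its siMYBL2 value lay within the siControl range. Within pairs, the log2 ratio was 1.05 ± 0.31 (SD over 4 pairs).

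ICAM1 was at 12.0, 6.84, 7.99 and 3.53 CPM in siMYBL2 and at 5.51, 3.79, 3.31 and 1.73 CPM in siControl, and IRAK2 was at 121, 71.4, 118 and 43.1 CPM against 54.1, 51.3, 43.7 and 13.3. The ranges overlapped for both genes only through replicate 4. Their log2 ratios within pairs were 1.07 ± 0.18 for ICAM1 and 1.19 ± 0.52 for IRAK2 (SD over 4 pairs). An exact sign-flip test over 4 pairs cannot go below p = 0.125 (two-sided), which each of these genes had.

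Without the block, edgeR called 0 of 10 genes in siMYBL2, against 4.38% of the 16065 genes tested called higher and 3.52% called lower. At an unadjusted p under 0.05 there were 4 (BIRC3, ICAM1, IRAK2 and RELA, the last at a log2 fold change of -0.17). Of all 16065 genes tested, 5177 were under that limit. DESeq2 called 1 of the 10 genes, ICAM1. BIRC3 was called with no filter on low counts, and BIRC3, ICAM1 and IRAK2 were called in a fit of all 24 libraries, both without the block. The edgeR adjusted p was 0.0899 for BIRC3, 0.0964 for ICAM1 and 0.113 for IRAK2. With the replicate block the same 3 genes were called higher (BIRC3 2.07-fold, adjusted p = 5.16e-07; ICAM1 2.11-fold, 4.66e-06; IRAK2 2.23-fold, 1.02e-05), against 7.68% of all genes tested called higher and 4.71% called lower in that fit. They were also called when replicate 4 of both groups was left out, with and without the block. The brakes and subunits moved less. With the block, NFKB2 had a log2 difference of 0.44 ± 0.06 (SE) and TNFAIP3 one of 0.39 ± 0.14, both under 1.5-fold, while RELA was at -0.17 ± 0.04, NFKB1 at 0.09 ± 0.06 and REL at 0.04 ± 0.07. Summed leukocyte markers were at 8.37 to 15.3 CPM in siMYBL2 and at 4.28 to 7.71 CPM in siControl, carried by CD14, while CD3E was at 0. Their part in these values was not tested.

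In siFOXM1 none of the 10 genes was called by edgeR (0 at an unadjusted p under 0.05, 0 by DESeq2), where 0.667% of the 15892 genes tested were called in either direction. Of those 15892 genes, 2060 had an unadjusted p under 0.05. BIRC3 was nearest to a change. It was at 80.0, 111, 69.0 and 39.1 CPM in siFOXM1, each below the same-numbered siControl library, with a log2 ratio of -0.57 ± 0.08 (SD over 4 pairs). In the fit with the block its log2 fold change was -0.58 ± 0.04 (SE, edgeR adjusted p = 3.9e-12), just inside the limit of 1.5-fold, and it was called lower only when replicate 4 was left out as well (-0.60, adjusted p = 2.57e-12). In the block fit 1.47% of all genes were called lower. The subunits had log2 fold changes between -0.15 (RELB) and 0.05 (REL) in siFOXM1, each smaller than its SE. NFKBIA was at -0.14 ± 0.18 (SE), ICAM1 at -0.09 ± 0.43, IRAK2 at -0.22 ± 0.44 and TNFAIP3 at -0.25 ± 0.43. The median over the 10 genes was -0.12, against 0.003 for all genes tested. These siFOXM1 and siMYBL2 values share their 4 siControl libraries.

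**Figure D3:**
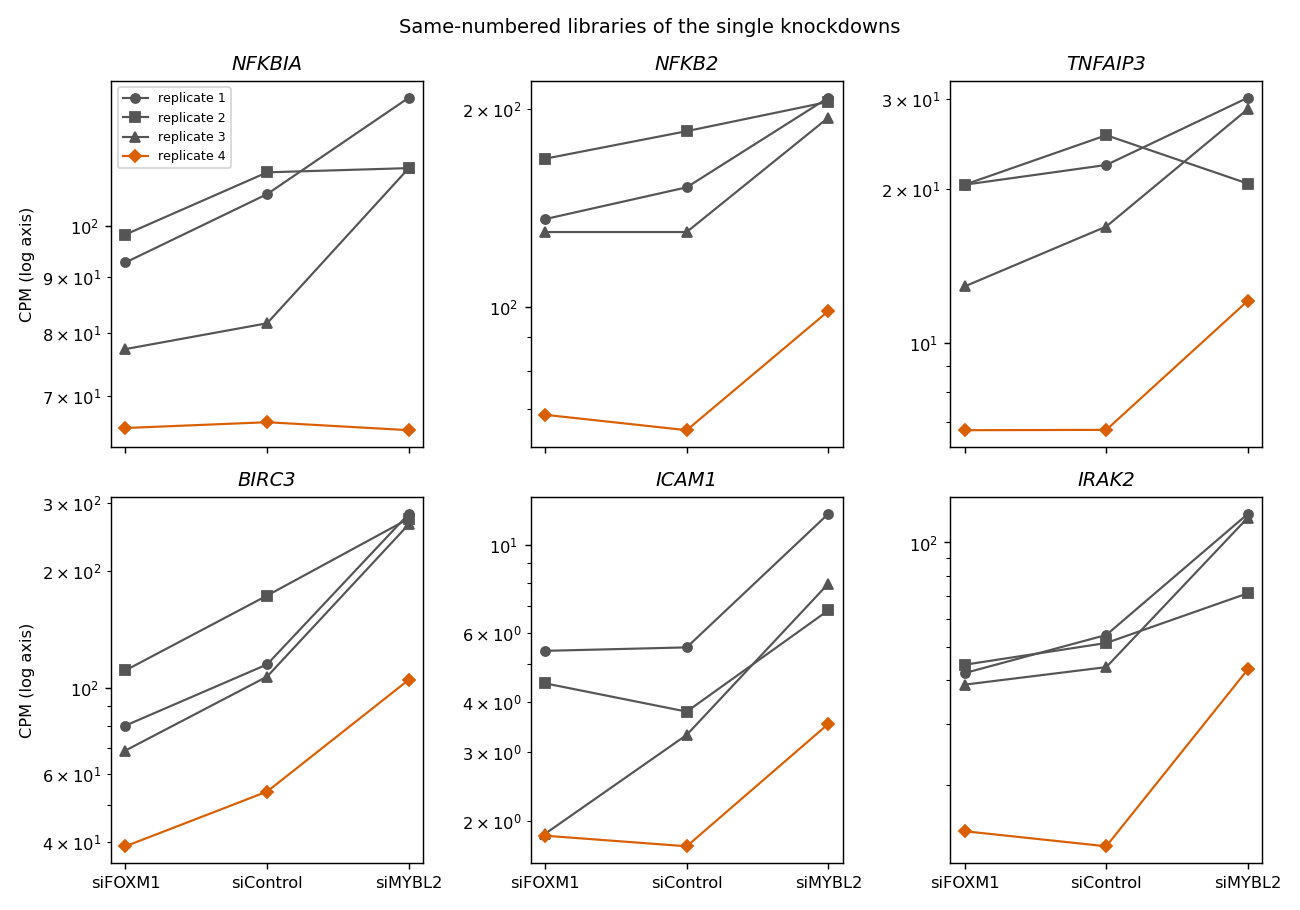
Lines join the same-numbered siFOXM1, siControl and siMYBL2 libraries for 6 genes (CPM, log axis, own scale per panel), with replicate 4 in orange. The lines of BIRC3, ICAM1 and IRAK2 all climb from siControl to siMYBL2, with replicate 4 the lowest, while those of NFKBIA and TNFAIP3 do not all climb.

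Set directly against siFOXM1, without siControl, siMYBL2 had higher BIRC3 (3.09-fold, log2 1.63 ± 0.37 SE, edgeR adjusted p = 0.0118) and higher IRAK2 (2.53-fold, log2 1.34 ± 0.40, edgeR adjusted p = 0.0372). Thus 2 of the 10 genes were higher, against 5.86% of the 16172 genes tested. The siMYBL2 level was above the siFOXM1 level in 4 of 4 pairs for both, with replicate 4 of siMYBL2 alone reaching into the siFOXM1 range. ICAM1 was also called, without the block, by DESeq2, with no filter and with all 24 libraries in 1 fit. With the block there were 4, ICAM1 (2.25-fold, edgeR adjusted p = 0.000127) and TNFAIP3 (1.54-fold, 0.00176) in addition, against 8.49% of all genes. IRAK2 lost its call in the fit without the block when 1 of 6 libraries (replicates 1 to 3 of either group) was left out, and BIRC3 kept it.

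In siBoth, where both factors were depleted, ICAM1 and IRAK2 rose over siControl_Both, 2 of the 10 genes against 2.8% of the 15812 genes tested (3.64% were called lower). The median log2 fold change of the 10 was 0.39, against 0.017 for all genes tested. ICAM1 was at 93.9, 104 and 58.0 CPM in siBoth and at 33.6, 47.6 and 33.1 in siControl_Both (2.24-fold, log2 1.16 ± 0.23 SE, edgeR adjusted p = 0.0163). IRAK2 was at 348, 358 and 266 CPM against 172, 216 and 164 (1.76-fold, log2 0.82 ± 0.15 SE, edgeR adjusted p = 0.0117). The siBoth libraries lay above all of their controls for both genes, as for 16.3% of all genes tested. NFKB2 was next, at 364, 445 and 305 CPM against 228, 288 and 235, also with no overlap, but its fold change of 1.48 was under the limit (edgeR adjusted p = 0.0449). With upper-quartile scaling it was called, and there 59.4% of all called genes were higher, against 43.5% with TMM.

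The other brakes and subunits stood between these and no difference. NFKBIA had a log2 fold change of 0.42 ± 0.13 (SE), NFKB1 of 0.40 ± 0.15, TNFAIP3 of 0.39 ± 0.16 and BIRC3 of 0.31 ± 0.16, with siBoth higher in 3 of 3 pairs for each, and none was called. RELB was at 0.07 ± 0.13. REL and RELA were the members that lay below their controls, REL at 18.7, 13.4 and 15.4 CPM in siBoth against 20.6, 18.9 and 19.5 (log2 -0.31 ± 0.14 SE, edgeR adjusted p = 0.177) and RELA at 129, 135 and 119 CPM against 136, 141 and 136 (log2 -0.11 ± 0.08). For both, every siBoth library lay below every control library, as for 18.8% of all genes tested, and neither was called. With the block the same 2 genes, ICAM1 and IRAK2, were called, against 6.62% of all genes called higher and 5.08% called lower. Without siBoth replicate 2 or siControl_Both replicate 3, ICAM1 lost its call. Summed leukocyte markers were at 10.9 to 12.7 CPM in siBoth and at 4.47 to 7.98 CPM in siControl_Both, which was not tested as a part of these values.

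The effect of the double knockdown was set against that of siMYBL2 alone, each relative to its own control. None of the 10 genes differed (edgeR, 0 at an unadjusted p under 0.05, 0 by DESeq2), where 0.159% of all 17012 genes tested were called in either direction. Of those 17012 genes, 1323 had an unadjusted p under 0.05. ICAM1 had a difference in log2 fold change of 0.08 ± 0.51 (SE) and IRAK2 of -0.31 ± 0.55. BIRC3 had the largest, at -0.73 ± 0.49, with the fitted ratio to the control at 2.05 in siMYBL2 and 1.24 in siBoth. In the fit with the block BIRC3 was called lower in this contrast (-0.74 ± 0.14 SE, edgeR adjusted p = 0.00392), 1 of 10 genes against 1.29% of all genes.

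FDI-6 and the FOXM1 siRNA are both directed at FOXM1, and their effects on these genes were compared as the difference of the log2 fold changes, each against its own control. For 7 of the 10 genes the FDI-6 effect was the higher, against 7.32% of the 17026 genes tested. One of the 7, ICAM1, had only 8, 8 and 10 counts in the control_FDI6 libraries, which limits its value. The difference was 2.87 ± 0.65 (SE) for ICAM1, 2.78 ± 0.47 for BIRC3, 2.55 ± 0.57 for TNFAIP3 and 2.46 ± 0.56 for IRAK2 (edgeR adjusted p = 0.00672, 0.00101, 0.00599 and 0.007). Among the subunits it was 1.59 ± 0.18 for REL and 1.33 ± 0.42 for RELB (edgeR adjusted p = 5.42e-05 and 0.0376), and NFKBIA had 0.96 ± 0.23 (adjusted p = 0.00928). RELB lost its call when any 1 of 7 libraries was left out (siControl replicates 1 and 2, FDI6 replicates 2 and 3 and each control_FDI6 library), while the other 6 genes kept theirs in each of the 14 fits that left out 1 library. NFKB2 (1.03 ± 0.41, edgeR adjusted p = 0.0842) and NFKB1 (0.56 ± 0.20, edgeR adjusted p = 0.0542) were not called, and RELA was at 0.07 ± 0.12. With the block NFKB2 was called too, 8 of 10 genes against 9.4% of all genes. Of all called genes 63.7% were higher in this contrast with TMM and 51.4% with upper-quartile scaling. Compound, siRNA, experiment and starting level of these genes all differ between the 2 arms and cannot be told apart.

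The rest of the pathway was taken from 3 lists. One holds 36 receptors, adaptors, kinases and ubiquitin enzymes that carry the signal to the IκB kinase, another 12 further inhibitors and IκB relatives, and the third 33 other known targets, mostly cytokines and survival genes. With FDI-6, 11 of the 20 targets tested rose and none fell, against 8.0% of all genes called higher and 5.77% called lower, with a median log2 fold change of 0.91 (all genes -0.01). The neutrophil chemokine CXCL8 was at 63.5, 50.1 and 59.6 CPM in FDI6 and at 1.79, 2.12 and 2.69 CPM in control_FDI6 (log2 4.71 ± 0.15 SE, edgeR adjusted p = 1.04e-08), the largest change among the listed genes tested. Its relatives CXCL1 and CXCL2 rose by 2.94 ± 0.11 and 2.80 ± 0.14 on the log2 scale (edgeR adjusted p = 2.68e-08 and 1.24e-07). For 12 of the 32 targets with a row, counts were too low to be tested, IL6 among them with 5 to 18 counts in FDI6 and 0 to 1 in control_FDI6, and a median over those tested does not speak for these.

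Of the signalling genes 33 were tested with FDI-6, of which 6 rose and 1 fell, with a median log2 fold change of 0.17, against 8.0% and 5.77% of all genes. One of the 6, TLR4, had 5 to 8 counts in the control_FDI6 libraries and passed the filter only through the FDI6 libraries, and without it 5 of 32 rose. The interleukin 1 receptor subunit IL1RAP rose (log2 1.07 ± 0.20 SE, edgeR adjusted p = 0.00169), as did the ubiquitin ligase TRAF6 (0.90 ± 0.16, adjusted p = 0.00116) and TAB3 (0.70 ± 0.11, adjusted p = 0.000474), which couples it to the kinase MAP3K7. TRADD, the adaptor of the TNF receptor, fell (-0.64 ± 0.12, edgeR adjusted p = 0.00169). The inhibitor list gave 3 of 12 higher and none lower (median 0.39), but TNIP3, at 6 to 13 counts in control_FDI6, would not have passed the filter on these alone and lost its call with the block, which leaves 2 of 11. The others were NFKBIZ, the nuclear IκB relative that helps to induce a subset of inflammatory genes, at 1.28 ± 0.11 (adjusted p = 6.57e-06) and TRAF1 at 1.00 ± 0.15 (adjusted p = 0.000455).

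**Figure D4:**
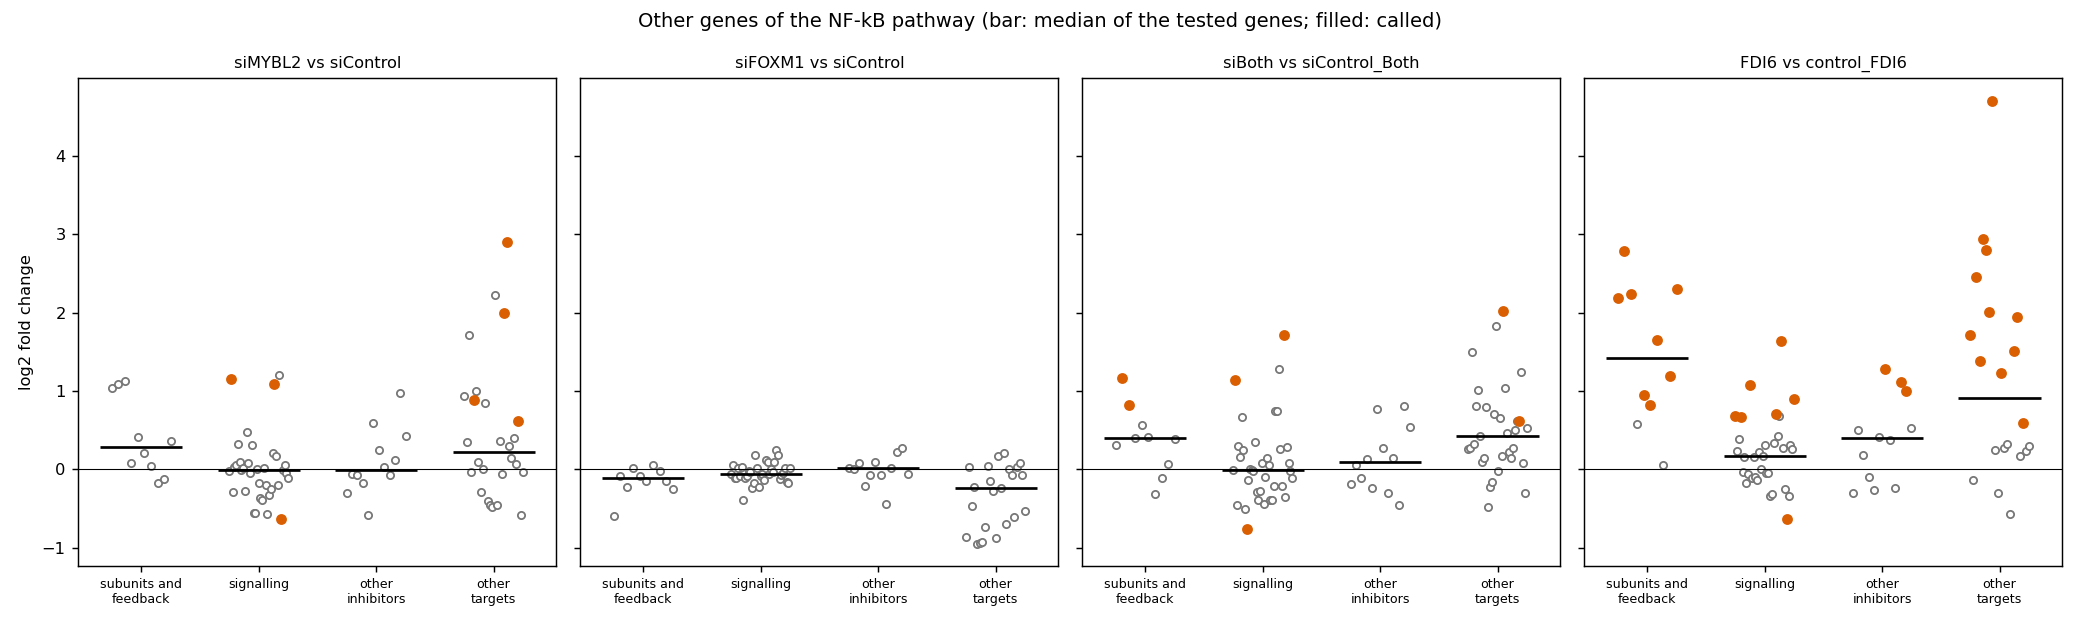
Each point is the log2 fold change of a tested gene of the 10 described genes or of 1 of the 3 further lists, in 4 comparisons, with filled points for called genes and bars for the median of the tested genes. The FDI6 panel has 11 filled targets, up to 4.71 for CXCL8, and the siFOXM1 panel has no filled point.

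In siMYBL2, 4 of the 26 targets tested were higher, LTB, MMP9, SDC4 and CD83, and none lower (median 0.22), against 4.38% of all genes called higher and 3.52% called lower. LTB (3 to 17 counts in siControl) and MMP9 (2 to 38) would not have passed the filter on their siControl libraries alone, and without them 2 of 24 were higher. With the block there were 9 higher and 1 lower, against 7.68% and 4.71% of all genes. The 9 hold LTB and MMP9, and also IL1B (0 to 15 counts in siControl) and CSF2 (1 to 24). These would not have passed on siControl alone either, so that part of this count was likely from the outset. SDC4, a heparan sulphate proteoglycan of the cell surface, was higher by 0.62 ± 0.18 on the log2 scale (edgeR adjusted p = 0.0475) and CD83, a surface marker of activated dendritic cells, by 0.88 ± 0.20 (edgeR adjusted p = 0.0183). Of the signalling genes CD40, a receptor of the TNF family, rose (1.15 ± 0.22, edgeR adjusted p = 0.0079), as did TLR4, and TRADD fell (-0.64 ± 0.10, edgeR adjusted p = 0.00304), of 35 tested. None of the 12 inhibitors was called by edgeR without the block (3 at an unadjusted p under 0.05, 2 by DESeq2), and 2 were higher with it, NFKBIE and TRAF1. Of all 16065 genes tested in siMYBL2, 5177 had an unadjusted p under 0.05.

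In siBoth, CD40 and SDC4 rose too, with log2 fold changes of 1.15 ± 0.23 (SE, edgeR adjusted p = 0.0166) and 0.61 ± 0.16 (edgeR adjusted p = 0.0435). IL1RAP fell in siBoth (-0.76 ± 0.14, edgeR adjusted p = 0.0123), where it rose with FDI-6, a difference that was not tested. In all, 2 of 31 targets were higher in siBoth, LTB and SDC4, of which LTB would not have passed the filter on its control libraries alone, and 13 were higher with the block. The 13 hold LTB and also TNF, at 9 to 11 counts in siControl_Both, which would not have passed on those libraries alone either. Of 36 signalling genes 2 were higher, CD40 and TNFRSF1B, and 1 lower, and with the block 5 and 1. Of all genes 2.8% were called higher without the block and 6.62% with it, so that the counts without the block lie near the share of all genes. None of 12 inhibitors was called by edgeR (2 at an unadjusted p under 0.05, 1 by DESeq2, the same 2 higher with the block). Of all 15812 genes tested in siBoth, 4683 had an unadjusted p under 0.05. In siFOXM1 none of these lists had a called gene in edgeR (targets 2 of 23, signalling 4 of 35 and inhibitors 1 of 12 at an unadjusted p under 0.05, and none by DESeq2). Of all 15892 genes tested in siFOXM1, 2060 had an unadjusted p under 0.05. The median of the targets there was -0.24, against 0.003 for all genes tested. With the block 6 of the 23 targets were called lower in siFOXM1, CXCL1, CXCL2, CXCL3, CXCL8, PTGS2 and BCL2A1, 4 of them chemokines. In that fit 1.47% of all genes were called lower. BCL2A1, at 8 to 89 counts in siFOXM1, would not have passed the filter on those libraries alone.

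Over the 24 libraries, the genes closest in pattern were found by Pearson's correlation of log2(CPM + 1) among the 11369 genes that averaged 100 counts or more per library. NFKBIA and ICAM1 were each other's closest gene, at 0.99, followed by DDIT3 for NFKBIA (0.986) and TNFAIP3 for ICAM1 (0.975). NFKB1 was closest to NFKBIA (0.981) and TNFAIP3 (0.974), and TNFAIP3 to NFKBIA (0.985) and a row with no matched name (0.981). IRAK2 was closest to CXCL8 (0.98) and CAPRIN2 (0.975). NFKB2 and RELB had PLAU, the urokinase gene, in common (0.965 and 0.962), with SDC4 next for NFKB2 (0.957) and ETS1 for RELB (0.949). The remaining 3 were closest to genes outside the lists, BIRC3 to PRNP and HMGA2 (0.952 and 0.948), RELA to AUP1 and RUSC2 (0.958 and 0.955) and REL to FGD6 and ARHGAP5 (0.958 and 0.957). The libraries share their experiments, whose levels differ widely for most of these genes, and these values are given as a description.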

How the data were processed

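RNA-seq was read as the counts the authors deposited for 24 A549 libraries, whole-number HTSeq counts of read pairs per gene that were not normalized. Per the study's methods and the submitters' processing notes, reads were trimmed with Trim Galore and aligned to hg38 with STAR, using GENCODE V29. A pair that HTSeq could not give to 1 gene was not counted, which lowers the counts of overlapping genes, and the strand setting of the counting is not given in the sources used here. Groups and replicate numbers came from the sample labels. Of the 58721 gene identifiers, 58207 matched a name in GENCODE V44 and 514 did not. SOD2 of the target list had no row under that name, is in no count of the targets tested and may be among the 514.

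The tests are quasi-likelihood tests of edgeR 4.0.16 (R 4.3.3), run for each comparison on the libraries of its groups alone, after TMM scaling and edgeR's filter on low counts, with p-values adjusted by Benjamini-Hochberg over all genes tested. The contrasts of 2 effects were fitted on their 4 groups. The members and the lists were chosen with earlier results of these data known. The text names the 10 members, MYBL2, FOXM1, up to 3 called risers and 3 called fallers of each list in a comparison if they averaged 100 counts or more, and the 2 genes closest to each member. Genes named beside a count of 5 or fewer or a low count, and the 6 targets lower in siFOXM1 with the block, were named after their values were seen.

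Same-numbered libraries deviated together over genes with 50 counts or more (mean correlation of their deviations 0.70 for siMYBL2, 0.754 for siFOXM1, 0.598 for siBoth and 0.681 between siMYBL2 and siFOXM1, each pair over 0.1), but not with FDI-6 (-0.081). The pairing comes from the numbers in the labels. The alternatives were no filter, scaling by upper quartiles or RLE, DESeq2 1.42.0, a single fit of all 24 libraries, the replicate block and leaving out each library. Leaving out replicate 4 of both groups was added after seeing the data. On counts simulated for siMYBL2 against siControl (15835 genes), the test recovered 90% of 100 genes changed by 1 on the log2 scale and 100% of 100 changed by 2. For the siBoth effect minus the siMYBL2 effect (16693 genes) it recovered 67% and 95%. The changed genes were drawn from those that averaged 100 counts or more, and no difference shared by same-numbered libraries was simulated. These shares are over genes of differing spread and do not speak for single members. No 2 libraries of a group were within sampling noise (chi-square per gene 3.57 to 62.81 over 30 pairs), and columns of other series used were 0.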

Additional observations from a re-analysis of the deposited data

Results flagged for a closer look

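Of 30 combinations of a gene and a group of 4 libraries, 2 had a library apart from the rest by Dixon's test, which chance gives in about 1 of 20. In siMYBL2, replicate 4 was low for NFKB2, with a gap of 0.87 of the group's range, and for BIRC3, with a gap of 0.901. NFKB2 was at 98.6 CPM there, against 194 to 208 CPM in the other siMYBL2 libraries, and BIRC3 at 105 CPM, against 264 to 281 CPM. Replicate 4 was also the lowest siControl library for both genes, and the fits without it are given beside the results.

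BIRC3 and IRAK2 differed between siMYBL2 and siFOXM1 by log2 differences of 1.63 and 1.34. Between the FDI-6 effect and the siFOXM1 effect 7 genes differed, by log2 differences of 0.96 for NFKBIA, 1.33 for RELB, 1.59 for REL, 2.55 for TNFAIP3, 2.78 for BIRC3, 2.87 for ICAM1 and 2.46 for IRAK2, each by edgeR's test of the difference.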

How the results depend on the processing

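ICAM1 in control_FDI6 rested on 8 to 10 counts per library, which limits its fold change. The number of the 10 genes called was the same with RLE as with TMM scaling in each comparison. With upper-quartile scaling 1 more, NFKB2, was called in siBoth. With FDI-6, 8 of 10 were called under each alternative tried, the replicate block included, other than leaving out a library, which gave 8 to 9. Where changed, the cause was not tested, other than by which libraries a fit holds.

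In siMYBL2, where none was called, the count was 1 with no filter (BIRC3) and with DESeq2 (ICAM1), 3 with all 24 libraries in 1 fit, with the replicate block, without replicate 4 and with both, and 0 to 2 when 1 library was left out (2 without siMYBL2 replicate 4). In siFOXM1 it was 1 (BIRC3) with the block and without replicate 4, and 0 in each fit without 1 library. In siBoth it was 1 with all 24 libraries (IRAK2 lost its call) and 1 to 3 when 1 library was left out. Between siMYBL2 and siFOXM1 it was 4 with the block, 3 with no filter, with DESeq2 and with all 24 libraries in 1 fit (ICAM1 in addition), and 1 to 3 without 1 library. For the FDI-6 effect minus the siFOXM1 effect it was 8 with the block (NFKB2 in addition), 6 to 9 without 1 library and 9 with no filter, and for the siBoth effect minus the siMYBL2 effect it was 1 with the block. The block changed no other call of the 10 genes.

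Of the lists, the signalling genes gave 5 calls with DESeq2 and 6 with the block in siBoth, and, leaving out 1 library, 1 to 6 in siMYBL2, 1 to 4 in siBoth and 6 to 8 with FDI-6. The inhibitors gave 2 with DESeq2 and 2 with the block in siMYBL2 (0 to 2 leaving out 1 library), 1 and 2 in siBoth (0 to 1), and 2 to 4 with FDI-6 leaving out 1 library. The targets gave 10 with the block in siMYBL2 (1 to 6 leaving out 1 library), 6 in siFOXM1 (0 to 1), 5 with DESeq2 and 13 with the block in siBoth (0 to 8), and 11 to 15 with FDI-6 leaving out 1 library. In the FDI-6 experiment the numbers do not pair the libraries (1 of 3 pairs correlated best with its own number), and the block gave 10 targets and 2 inhibitors there.

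For the 10 genes, signs turned only in log2 differences that were not called. NFKB1 in siFOXM1 was at -0.013 without replicate 4 and at -0.012 with the block in addition, and REL between siMYBL2 and siFOXM1 was at 0.031 with upper-quartile scaling. Leaving out 1 library, the ranges that crossed 0 were, in siMYBL2, -0.055 to 0.202 for NFKB1, -0.368 to 0.073 for RELB and -0.032 to 0.094 for REL. In siFOXM1 they were -0.112 to 0.11 for NFKB1, -0.318 to 0.113 for NFKB2, -0.062 to 0.011 for RELA, -0.372 to 0.064 for RELB, -0.005 to 0.116 for REL, -0.41 to 0.188 for ICAM1 and -0.514 to 0.033 for IRAK2. RELB ran from -0.058 to 0.169 in siBoth, and between siMYBL2 and siFOXM1 NFKB1 ran from -0.033 to 0.184, RELB from -0.202 to 0.217 and REL from -0.066 to 0.034.

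Over all genes, the block raised the number called from 1269 to 1991 in siMYBL2, from 106 to 401 in siFOXM1, from 1019 to 1849 in siBoth and from 27 to 271 for the siBoth effect minus the siMYBL2 effect. DESeq2 gave 64 in the last, and no filter gave 1545 in siBoth.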
